A study of Mus musculus with 6 samples.

Results

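The genes described here are 46 genes of DNA replication and S phase, covering origin licensing, the replisome, nucleotide supply, the copying of chromatin and the switch from G1 to S. A probe set was taken for a gene where that gene was its only platform symbol. Of the 46 genes, 45 had such a probe set, and 44 had one bright enough to test, out of 13559 genes tested in all. Chaf1a is not analysed here, and the 4 probe sets of Tyms, the thymidylate synthase gene, lay between 4.19 and 5.14 on every array, under the limit for dim probe sets of 5.62 on the log2 scale, and were not tested. RNA came from pooled mouse cumulus-oocyte complexes, which hold the oocyte and the cumulus cells around it. The donors were wild type immature females that had all received equine chorionic gonadotropin (eCG, which makes follicles grow) for 48 h. Complexes were taken with no further hormone (no hCG), 8 h or 16 h after human chorionic gonadotropin (hCG, the ovulatory stimulus), and each of these 3 groups was hybridised to 2 Affymetrix arrays. The labels place complexes without hCG in ovaries and call them expanded, and place those at 8 h and 16 h in the oviduct. As labelled, site of collection and hCG cannot be told apart in comparisons with the first group, but 8 h is early for ovulation, and whether the 8 h complexes had reached the oviduct is uncertain. The labels do not say whether replicates came from separate animals, so p-values measure the spread between these pools, which may be technical.

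Replication starts at origins, where the origin recognition complex, Cdc6 and Cdt1 load the MCM helicase in G1, a step called licensing. Cyclin E with its kinase and the E2F transcription factors open S phase, the helicase is activated by Cdc45, the GINS complex and Mcm10, and polymerases held on DNA by the clamp PCNA then copy both strands. Many of these genes are known E2F targets and are transcribed most in dividing cells. Granulosa and cumulus cells divide during follicle growth and leave the cell cycle after the ovulatory stimulus, while the oocyte is in meiosis and does not replicate its DNA.

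By correlation across probe sets, arrays of a group resembled each other (r between 0.991 and 0.996) more than arrays of different groups (r between 0.943 and 0.979). Array medians lay between 6.14 and 6.27, and values were used as deposited. In the absence of detection calls, how far a signal stands over background is unknown, and changes that involve a low value are of uncertain size.

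Most replication genes fell after hCG, and 0 were called higher. At 8 h, 37 of 44 were called lower than without hCG (84.1%, against 20.5% of all genes tested) and 0 were called higher (against 16.9% of all genes), at an adjusted p under 0.05 by limma. Their median log2 change was −0.99, against −0.02 over all genes. Falls of at least 2-fold were called for 22 of the 44, against 1347 of all 13559 genes tested. Between 8 h and 16 h, 26 of 44 were called lower (59.1%, against 9.12% of all genes) and 0 higher (against 11.8%). The median change in that interval was −0.71, against 0.01 over all genes. At 16 h, 43 of 44 were called lower than without hCG (97.7%, against 20.8% of all genes) and 0 higher (also against 20.8%), with a median of −1.73 against −0.02 over all genes. At an unadjusted p under 0.05 in limma, 40, 32 and 43 of the 44 were lower, with no share over all genes taken. At that threshold 0 were higher in any of the 3 comparisons. These comparisons share arrays, so the last is the sum of the first 2 and no separate evidence. On the log2 scale, the median over the 44 genes was 10.55 and 10.52 on the arrays without hCG, 9.67 and 9.68 at 8 h and 8.94 and 8.75 at 16 h. Both 8 h arrays lay below both arrays without hCG for 42 genes, and both 16 h arrays below both 8 h arrays for 33. Both 16 h arrays lay below both arrays without hCG for all 44. Such separation was not counted over all genes tested, so these counts have no background share.

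**Figure D1:**
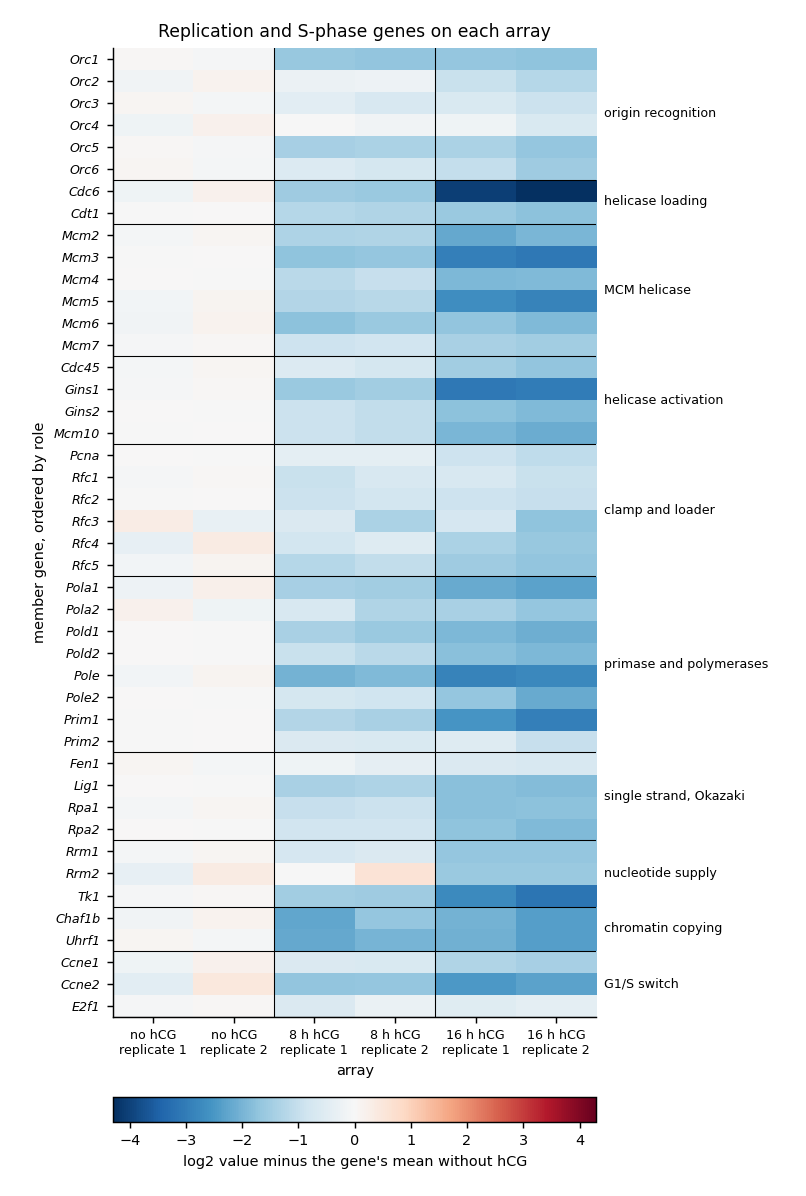
Heat map of the 44 tested replication genes (rows, ordered by role) on each of the 6 arrays (columns). Colour gives the log2 value minus the gene's mean over the 2 arrays without hCG, blue for lower, and most rows darken at 8 h and again at 16 h, with Cdc6 the darkest at 16 h.

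The count of the later interval depended on single arrays. It was 15 without replicate 1 at 8 h, 14 without replicate 2 at 8 h and 17 without replicate 2 at 16 h, and it ranged from 14 to 29 over all 6 omissions, where a group left with 1 array takes its spread from the other groups. The falls that stayed called in all 6 omissions were 27 of 37 at 8 h, 12 of 26 between 8 h and 16 h, and 38 of 43 at 16 h against no hCG. The 5 whole-time calls that were lost were those of E2f1, Fen1, Orc3, Prim2 and Rfc3. Without replicate 2 at 16 h their adjusted p-values were between 0.0519 and 0.206, and Rfc3 also lost its call without replicate 1 of no hCG (0.0946). The 12 falls of the later interval that stayed called were those of Rrm1, Rrm2, Tk1, Mcm3, Mcm5, Mcm10, Gins1, Cdc45, Cdc6, Prim1, Pole2 and Rpa2. Changes in the rest of the text are log2 differences of group means with their SE from limma (n = 2 arrays in each group), with the adjusted p beside the main ones.

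Markers of cell types in a complex or near it moved as well. For the counts below, 20.5% of all genes fell and 16.9% rose at 8 h. Between 8 h and 16 h, 9.12% of all genes fell and 11.8% rose. The 20 tested oocyte markers of 24 listed were all called lower at 8 h than without hCG, with a median change of −2.26. Their summed linear signal was 72150 to 84940 without hCG, 16600 to 17910 at 8 h and 25930 to 29030 at 16 h. Zp1, a zona pellucida gene, fell by 3.01 ± 0.18 and Zp2 by 2.71 ± 0.15 at 8 h. Between 8 h and 16 h, 7 oocyte markers fell and 8 rose. Of 15 tested granulosa markers of 16 listed, 11 fell at 8 h and 5 between 8 h and 16 h, and 0 rose in either interval (at an unadjusted p, 0 at 8 h and 1 afterwards). Their summed signal was 112900 to 116700 without hCG, 51810 to 62180 at 8 h and 36260 to 40410 at 16 h. Of 18 tested leukocyte markers of 22 listed, 1 rose at 8 h and 15 rose between 8 h and 16 h, with median changes of −0.04 and 1.78. Their sums were 4627 to 4803 without hCG, 4056 to 4228 at 8 h and 9896 to 9956 at 16 h. Laptm5, which read 11.60 and 11.33 without hCG, made up much of the earlier sums and had no call in any comparison. Ptprc, the pan-leukocyte gene, read between 4.90 and 5.55, under the limit for dim probe sets, on the 4 earlier arrays, and 7.64 and 7.98 at 16 h. Of 9 tested theca and stroma markers of 12 listed, 5 fell and 0 rose at 8 h (also 0 at an unadjusted p), with a median change of −0.69, and 4 fell and 1 rose afterwards, with a median of −0.67. Their sums were 3665 to 4114 without hCG, 1985 to 2661 at 8 h and 1655 to 1778 at 16 h. Of 4 tested oviduct epithelium markers of 10 listed, 1 fell and 0 rose at 8 h (also 0 at an unadjusted p), and 2 rose afterwards. Among them Ovgp1, the oviduct glycoprotein gene, had −0.86 ± 0.50 at 8 h (adjusted p = 0.232) and rose by 3.85 ± 0.50 from there to 16 h (adjusted p = 0.000628). Cdh1 fell by 1.79 ± 0.20 and then rose by 1.56 ± 0.20, with −0.22 ± 0.20 over the whole time (adjusted p = 0.446). At 16 h, 1 of the 4 was called higher than without hCG, and their median change was −0.17. Of 5 tested ovarian surface epithelium markers of 7 listed, 3 rose and 1 fell in the later interval. The keratin gene Krt18 rose by 3.22 ± 0.21, Upk3b fell by 0.89 ± 0.16 (adjusted p = 0.00408), and Upk1b had 0.07 ± 0.17. Of 11 tested cumulus expansion markers of 12 listed, all rose at 8 h, with a median change of 4.59, and 7 fell and 2 rose between 8 h and 16 h, with a median of −1.04. The part of these shifts in the falls of the replication genes was not tested, and in pooled complexes fewer cells of a type and less RNA per cell cannot be told apart.

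**Figure D2:**
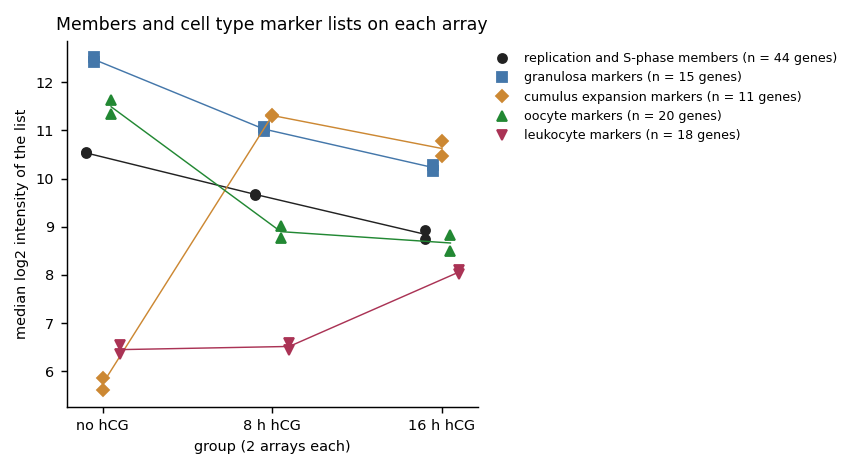
Median log2 intensity (vertical axis) of the 44 replication genes and of 4 marker lists on each array (points, 2 per group), by hCG group (horizontal axis), with lines through group means. The replication genes are lower at each later time, oocyte markers drop mainly by 8 h, granulosa markers drop in both intervals and leukocyte markers rise after 8 h; heights of different lists are not comparable.

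Since most of the genes fell, their promoters were read for letters that E2F proteins and the CCAAT-binding factor NF-Y are known to bind. RefSeq promoter windows (GRCm38.p6), from 250 bases before to 50 after the annotated start, were at hand for 39 of the 46 genes, in 48 windows. E2F letters (TTTCCCGC, TTTCGCGC, TTTGCCGC or TTTGGCGC, either strand) occurred in 14 of the 48 windows (29.2%), against 744 of all 32851 windows (2.26%). By gene the shares were 14 of 39 (35.9%) and 704 of 27025 (2.6%). The 14 genes were Cdc6, Cdt1, Lig1, Mcm3, Mcm5, Mcm6, Mcm7, Orc1, Orc3, Pola1, Pold1, Pole2, Rfc3 and Uhrf1. CCAAT on either strand occurred in 26 of the 48 windows (54.2%), against 37.4% of all windows. TTTGAA, the letters of the CHR element of later cell cycle genes, occurred in 4 of the 48 (8.33%), against 17.9% of all windows. A match is a description of letters, and a window without one says nothing about the factor.

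**Figure D3:**
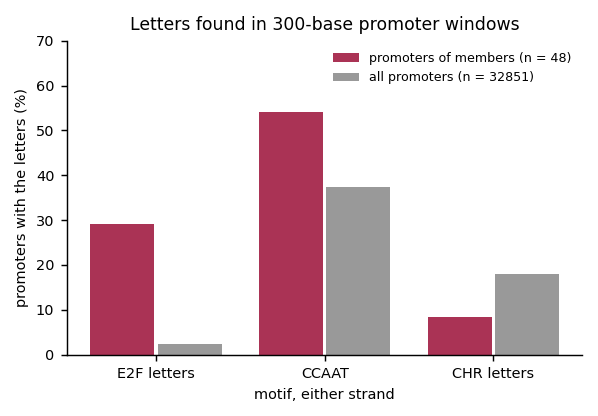
Share of 300-base promoter windows (vertical axis, percent) that hold each set of letters on either strand (horizontal axis), for the 48 windows of replication genes (red) and all 32851 windows (grey). E2F letters are found in 29.2% and 2.26% of windows, CCAAT in 54.2% and 37.4%, and CHR letters in 8.33% and 17.9%.

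Among the 37 tested genes with a window, the 14 with E2F letters had a median change of −1.41 at 8 h, and the 23 without had −0.82. Between 8 h and 16 h the order was the other way, −0.50 for the 14 and −0.78 for the 23, and the ranges of both sets overlapped in both intervals. These medians are given with no test. The windows of 6 genes with contrasting time courses are shown 5′ to 3′ on the strand of the gene, with E2F letters and CCAAT, read on either strand, in capitals. They lie at chr4:108579204-108579503 (Orc1, + strand), chr11:98907901-98908200 (Cdc6, +), chr1:20820263-20820562 (Mcm3, −), chr8:75109259-75109558 (Mcm5, +), chr1:128359656-128359955 (Mcm6, −) and chr12:24708004-24708303 (Rrm2, +). Orc1 and Mcm6 fell by 8 h with no later call, Cdc6, Mcm3 and Mcm5 fell in both intervals, and Rrm2 fell in the later interval with no early call. Mcm6 held 3 E2F matches, Mcm3 and Mcm5 held 2 each, Cdc6 and Orc1 held 1 each, and Rrm2 held 0. In Mcm5 and in Mcm6, one match on each strand overlap within a single run of capitals.
Orc1: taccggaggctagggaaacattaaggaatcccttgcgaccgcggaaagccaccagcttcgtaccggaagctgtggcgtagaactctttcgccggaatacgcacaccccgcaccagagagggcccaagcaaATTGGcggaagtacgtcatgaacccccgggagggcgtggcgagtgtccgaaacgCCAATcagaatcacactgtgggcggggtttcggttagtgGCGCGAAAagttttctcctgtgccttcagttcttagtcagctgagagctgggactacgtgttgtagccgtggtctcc
Cdc6: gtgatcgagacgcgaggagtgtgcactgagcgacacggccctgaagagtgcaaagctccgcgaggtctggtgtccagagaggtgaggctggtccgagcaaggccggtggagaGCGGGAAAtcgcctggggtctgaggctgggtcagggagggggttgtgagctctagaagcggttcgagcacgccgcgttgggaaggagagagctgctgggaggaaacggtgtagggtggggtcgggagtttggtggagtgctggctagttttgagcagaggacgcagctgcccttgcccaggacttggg
Mcm3: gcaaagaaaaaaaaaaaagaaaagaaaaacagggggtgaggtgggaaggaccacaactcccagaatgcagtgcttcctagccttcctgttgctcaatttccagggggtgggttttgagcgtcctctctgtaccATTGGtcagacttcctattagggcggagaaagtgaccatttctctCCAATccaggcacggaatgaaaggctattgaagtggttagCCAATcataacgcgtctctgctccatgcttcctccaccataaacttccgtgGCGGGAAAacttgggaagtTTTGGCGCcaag
Mcm5: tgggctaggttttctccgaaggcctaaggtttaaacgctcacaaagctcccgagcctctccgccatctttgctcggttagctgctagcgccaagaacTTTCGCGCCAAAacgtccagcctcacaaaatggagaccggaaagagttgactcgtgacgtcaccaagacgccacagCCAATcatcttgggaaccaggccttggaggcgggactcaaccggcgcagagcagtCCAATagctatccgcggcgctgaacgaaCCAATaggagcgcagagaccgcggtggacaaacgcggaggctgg
Mcm6: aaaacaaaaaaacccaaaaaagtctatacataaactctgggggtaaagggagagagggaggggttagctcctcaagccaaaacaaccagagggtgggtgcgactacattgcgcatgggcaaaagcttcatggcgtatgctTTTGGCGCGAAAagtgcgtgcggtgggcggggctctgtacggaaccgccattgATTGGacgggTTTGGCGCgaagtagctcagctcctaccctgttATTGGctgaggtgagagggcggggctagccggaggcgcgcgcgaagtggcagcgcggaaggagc
Rrm2: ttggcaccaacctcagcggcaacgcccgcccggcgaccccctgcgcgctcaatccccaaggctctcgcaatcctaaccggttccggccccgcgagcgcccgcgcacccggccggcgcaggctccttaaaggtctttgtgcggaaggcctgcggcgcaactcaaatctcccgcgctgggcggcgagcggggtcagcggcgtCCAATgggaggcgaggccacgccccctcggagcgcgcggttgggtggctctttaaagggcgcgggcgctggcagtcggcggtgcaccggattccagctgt

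**Figure D4:**
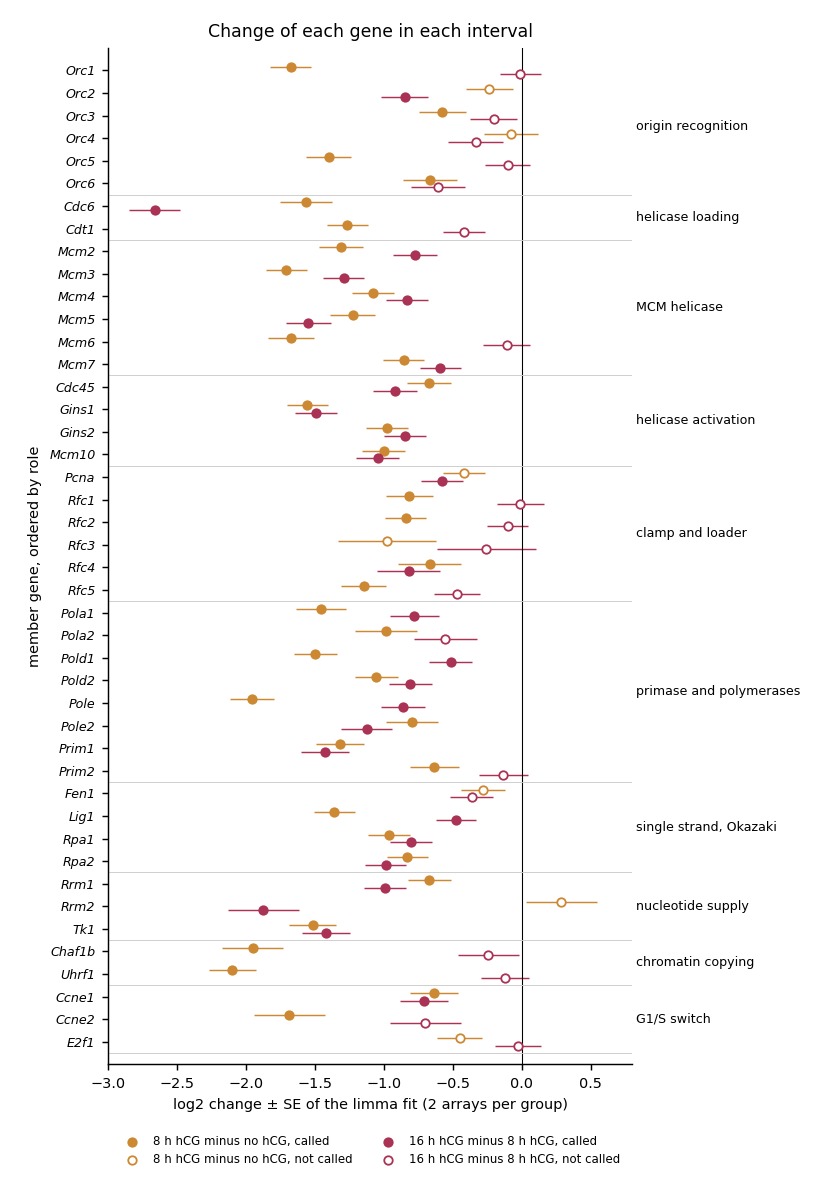
Log2 change (horizontal axis, points, with bars of ± 1 SE of the limma fit) of each replication gene (rows, by role) at 8 h against no hCG (orange) and at 16 h against 8 h (red), filled where called at an adjusted p under 0.05. Orc1, Orc5, Mcm6, Uhrf1 and Chaf1b have large early and small later changes, while Rrm2 has a large later change with an early value of 0.29.

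Origin recognition genes, whose products mark the origin, differed in their courses. Of 6, 4 fell at 8 h (66.7%), 1 between 8 h and 16 h (16.7%) and 5 over the whole time (83.3%). The shares of all genes were 20.5%, 9.12% and 20.8%, also for the role classes below. Orc1, which encodes an ATP-binding subunit, read 8.76 and 8.65 without hCG, 7.07 and 6.99 at 8 h and 7.06 and 6.98 at 16 h. The 8 h and 16 h arrays were alike and all 4 lay below both arrays without hCG. Orc1 fell by 1.68 ± 0.15 at 8 h (adjusted p = 2.44e-05), a 3.19-fold drop, and its later change was −0.01 ± 0.15 (adjusted p = 0.971). A second, dimmer Orc1 probe set had 0.00 ± 0.17 at 8 h (adjusted p = 0.991). Orc5, another ATP-binding subunit, read 11.31 and 11.20 without hCG, 9.83 and 9.88 at 8 h and 9.89 and 9.61 at 16 h, so its later groups overlapped. It fell by 1.40 ± 0.16 at 8 h (adjusted p = 0.000124), and its later change was −0.10 ± 0.16 (adjusted p = 0.76). Orc2 had the opposite course, with 9.28 and 9.59 without hCG, 9.18 and 9.22 at 8 h and 8.47 and 8.22 at 16 h. Only its 16 h arrays stood clearly apart. Orc2 changed by −0.24 ± 0.17 at 8 h (adjusted p = 0.345) and fell by 0.85 ± 0.17 afterwards (adjusted p = 0.00735). That later call was lost without either 8 h array or without replicate 2 at 16 h, with adjusted p-values of 0.0528, 0.0567 and 0.0756. Orc4 was the one replication gene whose brightest probe set had no call in any comparison, with 9.74 and 10.08 without hCG, 9.90 and 9.75 at 8 h and 9.72 and 9.26 at 16 h. Its 16 h values were below the others by little, and its change over the whole time was −0.42 ± 0.20 (adjusted p = 0.136). A second, dimmer Orc4 probe set was called lower over the whole time, by 0.46 ± 0.16 (adjusted p = 0.0499). Orc3 and Orc6 had early changes of −0.58 ± 0.17 (adjusted p = 0.0257) and −0.67 ± 0.20 (adjusted p = 0.025), both no longer called without replicate 1 of no hCG (adjusted p = 0.0879 for Orc3 and 0.0809 for Orc6) or without either 8 h array (adjusted p from 0.0558 to 0.202).

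Both helicase loaders fell. Cdc6, the ATPase that joins the origin complex to load the helicase, read 9.79 and 10.17 without hCG, 8.45 and 8.38 at 8 h and 5.92 and 5.58 at 16 h. The 3 groups did not overlap, and of the 16 h arrays one lay above and one below the limit for dim probe sets. It fell by 1.56 ± 0.19 at 8 h (adjusted p = 0.000158). From there to 16 h it fell by 2.66 ± 0.19 (adjusted p = 1.92e-05). Over the whole time the Cdc6 signal dropped 18.7-fold, to 5.34% of its level without hCG, the largest fall of the 44 genes. Cdt1, its partner in loading, read 11.46 and 11.48 without hCG, 10.23 and 10.19 at 8 h and 9.89 and 9.69 at 16 h. Most of its drop lay in the first interval. Cdt1 fell by 1.26 ± 0.15 at 8 h (adjusted p = 0.000161), and its later change was −0.42 ± 0.15 (adjusted p = 0.0924).

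All 6 subunits of the MCM helicase, the ring that unwinds DNA ahead of the polymerases, fell at 8 h, and 5 of 6 fell again by 16 h. Mcm3 read 11.58 and 11.61 without hCG, 9.86 and 9.92 at 8 h and 8.66 and 8.53 at 16 h. Its groups were far apart relative to the spread within them. Mcm3 fell by 1.71 ± 0.15 (adjusted p = 2.2e-05) and then by 1.29 ± 0.15 (adjusted p = 0.000314), which left 12.5% of its signal without hCG. Mcm5 read 11.60 and 11.82 without hCG, 10.43 and 10.53 at 8 h and 9.04 and 8.83 at 16 h, again without overlap. It fell by 1.23 ± 0.16 (adjusted p = 0.000297) and then by 1.55 ± 0.16 (adjusted p = 0.00018). Mcm6 differed from these, with 11.90 and 12.19 without hCG, 10.29 and 10.45 at 8 h and 10.36 and 10.16 at 16 h. Its 8 h and 16 h arrays overlapped. Mcm6 fell by 1.67 ± 0.17 at 8 h (adjusted p = 5.4e-05), and its later change was −0.11 ± 0.17 (adjusted p = 0.76). The other subunits, Mcm2, Mcm4 and Mcm7, fell by 1.31 ± 0.16, 1.08 ± 0.15 and 0.86 ± 0.15 at 8 h and by 0.78 ± 0.16, 0.83 ± 0.15 and 0.59 ± 0.15 afterwards. Leaving out single arrays ended the later calls of these last 3 genes, at adjusted p-values between 0.0581 and 0.148. Mcm2 lost it without either 8 h array or replicate 1 at 16 h, Mcm4 without replicate 2 at 8 h, and Mcm7 without any 1 of the 4 arrays. A second, dimmer Mcm2 probe set fell by 1.18 ± 0.15 in the later interval (adjusted p = 0.00059). A second, dimmer Mcm4 probe set had no later call, with −0.56 ± 0.23 (adjusted p = 0.128).

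Genes that turn the loaded ring into a working helicase all fell in both intervals, 4 of 4. Gins1, a subunit of the GINS complex, read 10.51 and 10.64 without hCG, 8.96 and 9.07 at 8 h and 7.49 and 7.56 at 16 h. The 3 pairs were evenly spaced and tight. Gins1 fell by 1.56 ± 0.15 (adjusted p = 4.05e-05) and then by 1.50 ± 0.15 (adjusted p = 0.000145), an 8.29-fold drop in all. Mcm10, which binds the helicase as it is activated, read 9.85 and 9.90 without hCG, 8.95 and 8.81 at 8 h and 7.93 and 7.74 at 16 h, with no overlap. It fell by 1.00 ± 0.16 (adjusted p = 0.0008) and then by 1.04 ± 0.16 (adjusted p = 0.00137). Gins2 and Cdc45 fell by 0.98 ± 0.15 and 0.67 ± 0.16 at 8 h and by 0.85 ± 0.15 and 0.92 ± 0.16 afterwards. The early Cdc45 call was lost without replicate 2 at 8 h (adjusted p = 0.0891), and the later Gins2 call without replicate 1 at 8 h (adjusted p = 0.0536). A dimmer Cdc45 probe set, between 6.62 and 7.28 on all arrays, had no call in any comparison.

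The clamp and the clamp loader had the smallest whole-time median change of the 10 role classes, −1.12, with all 6 genes lower at 16 h than without hCG. Pcna, the sliding clamp, read 13.24 and 13.17 without hCG, 12.78 and 12.79 at 8 h and 12.30 and 12.11 at 16 h. The 3 pairs did not overlap, but the steps were short. Pcna changed by −0.42 ± 0.15 at 8 h (adjusted p = 0.0582) and fell by 0.58 ± 0.15 afterwards (adjusted p = 0.0268), and over the whole time it dropped 2-fold. Its later call was lost without any 1 of the 8 h and 16 h arrays, at adjusted p-values between 0.0634 and 0.156. Of the 5 loader subunits Rfc1 to Rfc5, 4 fell at 8 h and all 5 over the whole time. Rfc5 read 10.09 and 10.36 without hCG, 9.01 and 9.15 at 8 h and 8.70 and 8.52 at 16 h, without overlap. It fell by 1.15 ± 0.17 at 8 h (adjusted p = 0.000515), and its later change was −0.47 ± 0.17 (adjusted p = 0.0827). Rfc2 read 11.07 and 11.09 without hCG, 10.16 and 10.31 at 8 h and 10.18 and 10.08 at 16 h, so the later pairs overlapped. It fell by 0.84 ± 0.15 at 8 h (adjusted p = 0.00188), with −0.10 ± 0.15 afterwards (adjusted p = 0.743). A second Rfc4 probe set, nearly as bright, fell by 0.94 ± 0.19 at 8 h (adjusted p = 0.00417) and by 0.87 ± 0.19 afterwards (adjusted p = 0.0119). On its brightest probe set, Rfc4 read 9.66 and 10.34 without hCG, 9.22 and 9.45 at 8 h and 8.64 and 8.38 at 16 h. Its pair without hCG was spread widely. Its early fall of 0.67 ± 0.23 (adjusted p = 0.048) was no longer called without replicate 2 of no hCG (adjusted p = 0.243), either 8 h array (0.225 and 0.0919) or either 16 h array (0.0814). Its later fall of 0.82 ± 0.23 (adjusted p = 0.0338) was not called without any 1 of the 8 h and 16 h arrays (adjusted p from 0.0877 to 0.22). Rfc1 fell by 0.82 ± 0.17 at 8 h (adjusted p = 0.00463), a call lost without replicate 1 at 8 h (adjusted p = 0.0553). Rfc3 had the largest SE of the 44 genes and read 9.59 and 8.92 without hCG, 8.64 and 7.91 at 8 h and 8.53 and 7.51 at 16 h. Replicate 1 was the higher array in each group, and the 8 h and 16 h pairs overlapped. Its early change of −0.98 ± 0.36 was not called (adjusted p = 0.0619), while its second probe set fell by 0.93 ± 0.17 (adjusted p = 0.00238).

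All 8 genes of primase and the replicative polymerases fell at 8 h, and 6 of 8 fell again. Pole, the catalytic subunit of polymerase epsilon on the leading strand, read 9.73 and 9.99 without hCG, 7.82 and 7.98 at 8 h and 6.99 and 7.08 at 16 h. No arrays overlapped between groups. It fell by 1.96 ± 0.16 (adjusted p = 1.61e-05) and then by 0.86 ± 0.16 (adjusted p = 0.00511), a later call lost without replicate 2 at 8 h (adjusted p = 0.0569) or replicate 1 at 16 h (adjusted p = 0.0521). Prim1, the catalytic primase subunit that lays down RNA primers, read 11.08 and 11.12 without hCG, 9.84 and 9.72 at 8 h and 8.56 and 8.15 at 16 h. Both steps were of about the same size. Prim1 fell by 1.32 ± 0.17 (adjusted p = 0.000297) and then by 1.43 ± 0.17 (adjusted p = 0.00045). Pold1, the catalytic subunit of polymerase delta, read 11.42 and 11.41 without hCG, 10.02 and 9.81 at 8 h and 9.47 and 9.33 at 16 h. The first step was the longer one. It fell by 1.50 ± 0.16 (adjusted p = 6.35e-05) and then by 0.52 ± 0.16 (adjusted p = 0.0475), the later call being lost without any 1 of the 4 arrays involved (adjusted p from 0.112 to 0.342). Pole2, the partner subunit of Pole, read 10.19 and 10.19 without hCG, 9.45 and 9.34 at 8 h and 8.51 and 8.02 at 16 h, with no overlap. It fell by 0.80 ± 0.19 (adjusted p = 0.00836) and then by 1.13 ± 0.19 (adjusted p = 0.00249), and the early call was lost without replicate 2 at 8 h (adjusted p = 0.0646). Pola1, Pola2, Pold2 and Prim2 fell by between 0.64 and 1.46 at 8 h. Of these, Pola1 (by 0.78 ± 0.18) and Pold2 (by 0.81 ± 0.16) fell again. A second Prim2 probe set, nearly as bright, had no call in any comparison, with −0.30 ± 0.20 at 8 h (adjusted p = 0.292). Leaving out 1 array ended the early calls of Pola2 (replicate 2 at 8 h, adjusted p = 0.0804) and Prim2 (replicate 1 or 2 at 8 h, 0.0886 and 0.11). It also ended the later calls of Pola1 (any of the 4 arrays, 0.0665 to 0.11) and Pold2 (replicate 1 at 8 h, 0.0791, or replicate 2 at 16 h, 0.0572).

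Genes for the handling of single strands and Okazaki fragments, the short pieces of the lagging strand, fell in 3 of 4 cases in each interval. Rpa1, the large subunit of the protein that coats single-stranded DNA, read 12.55 and 12.72 without hCG, 11.63 and 11.72 at 8 h and 10.85 and 10.89 at 16 h. Rpa2, its middle subunit, read 10.85 and 10.80 without hCG, 9.986 and 10.003 at 8 h and 9.08 and 8.93 at 16 h. Both genes stepped down at each time with tight pairs. Rpa1 fell by 0.96 ± 0.15 (adjusted p = 0.000876) and then by 0.80 ± 0.15 (adjusted p = 0.00522, and 0.0568 without replicate 2 at 8 h). Rpa2 fell by 0.83 ± 0.15 (adjusted p = 0.00198) and then by 0.99 ± 0.15 (adjusted p = 0.00149). Lig1, the ligase that joins Okazaki fragments, read 11.44 and 11.40 without hCG, 10.03 and 10.09 at 8 h and 9.61 and 9.55 at 16 h. Its drop lay mainly in the first interval. Lig1 fell by 1.36 ± 0.15 (adjusted p = 7.94e-05), and its later fall of 0.48 ± 0.15 (adjusted p = 0.0498) was not called without any 1 of the 8 h and 16 h arrays (adjusted p from 0.134 to 0.254). For Fen1, the flap endonuclease, probe sets differed. The brighter had −0.28 ± 0.16 at 8 h (adjusted p = 0.217) and −0.37 ± 0.16 afterwards (adjusted p = 0.158). The dimmer read 10.23 and 9.93 without hCG, 9.77 and 9.61 at 8 h and 7.98 and 7.52 at 16 h. Its 16 h arrays stood far below the rest, and it fell by 1.94 ± 0.20 in the later interval (adjusted p = 0.000152).

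Genes of nucleotide supply fell in 2 of 3 cases at 8 h and in 3 of 3 afterwards. Rrm2, the small subunit of ribonucleotide reductase, which makes DNA precursors, read 11.34 and 12.01 without hCG, 11.65 and 12.27 at 8 h and 10.08 and 10.09 at 16 h. The first 2 pairs overlapped and the 16 h arrays lay below all others. Its early change was 0.29 ± 0.26 (adjusted p = 0.455), and it then fell by 1.87 ± 0.26 (adjusted p = 0.000857), a 3.67-fold drop. Its other 2 probe sets had early changes of 0.38 ± 0.28 and 0.42 ± 0.17 (adjusted p = 0.359 and 0.0898), and later falls of 2.08 ± 0.28 and 2.23 ± 0.17. Rrm1, the large subunit of the same enzyme, read 11.92 and 12.11 without hCG, 11.29 and 11.41 at 8 h and 10.34 and 10.37 at 16 h, with no overlap. It fell by 0.67 ± 0.15 at 8 h (adjusted p = 0.0077, and 0.0749 without replicate 1 at 8 h) and then by 0.99 ± 0.15 (adjusted p = 0.00175). Tk1, the thymidine kinase of the cytosol, read 10.07 and 10.20 without hCG, 8.63 and 8.61 at 8 h and 7.38 and 7.01 at 16 h. Its 3 groups were well apart. Tk1 fell by 1.52 ± 0.17 (adjusted p = 0.00011) and then by 1.42 ± 0.17 (adjusted p = 0.000407), which left 13% of its signal without hCG.

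Both tested genes for the copying of chromatin fell early. Uhrf1, which brings the maintenance DNA methyltransferase to newly copied DNA, read 11.88 and 11.71 without hCG, 9.60 and 9.80 at 8 h and 9.73 and 9.42 at 16 h. Its later pairs overlapped far below the first. Uhrf1 fell by 2.10 ± 0.17 at 8 h (adjusted p = 1.53e-05), the largest early fall of the 44 genes, and its later change was −0.12 ± 0.17 (adjusted p = 0.727). Its second probe set gave −2.13 ± 0.20 and 0.06 ± 0.20. Chaf1b, a subunit of the CAF-1 complex that places histones behind the fork, read 9.23 and 9.54 without hCG, 7.15 and 7.72 at 8 h and 7.36 and 7.02 at 16 h. Its later pairs overlapped too. Chaf1b fell by 1.95 ± 0.22 at 8 h (adjusted p = 0.000115), with −0.24 ± 0.22 afterwards (adjusted p = 0.555).

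Of the 3 genes of the switch into S phase, both E cyclins fell at 8 h. Ccne2 read 8.22 and 9.13 without hCG, 6.985 and 7.001 at 8 h and 6.22 and 6.37 at 16 h. The pair without hCG was spread widely but lay above all others. Ccne2 fell by 1.69 ± 0.26 (adjusted p = 0.000718), and its later change was −0.70 ± 0.26 (adjusted p = 0.0949). Ccne1 read 9.54 and 9.93 without hCG, 9.10 and 9.09 at 8 h and 8.45 and 8.32 at 16 h, without overlap. It fell by 0.64 ± 0.17 (adjusted p = 0.0181) and then by 0.71 ± 0.17 (adjusted p = 0.0192). The early call was lost without replicate 2 of no hCG (adjusted p = 0.083) or either 8 h array (0.089 and 0.0946), and the later one without any 1 of its 4 arrays (0.0778 to 0.129). E2f1, the E2F factor gene of the list, read 8.62 and 8.72 without hCG, 8.06 and 8.37 at 8 h and 8.14 and 8.23 at 16 h on its brightest probe set. The later pairs overlapped just below the first. Its change was −0.45 ± 0.16 at 8 h (adjusted p = 0.0609), while a second E2f1 probe set fell by 1.28 ± 0.19 (adjusted p = 0.000533). Over the whole time E2f1 had −0.48 ± 0.16 (adjusted p = 0.0443), a call lost without each single array (adjusted p from 0.0608 to 0.175).

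**Figure D5:**
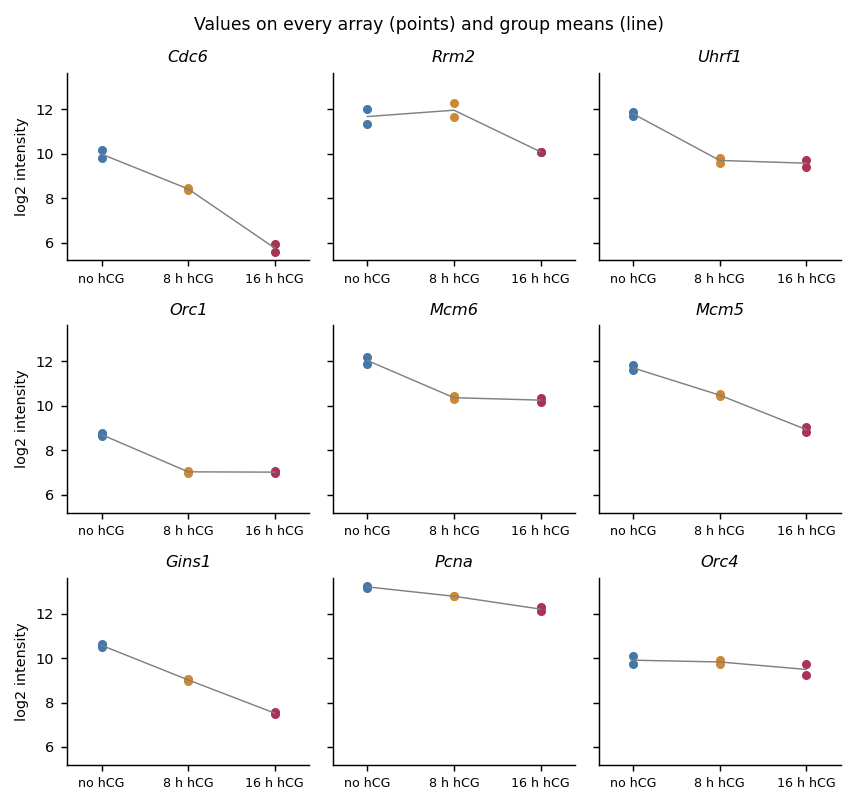
Log2 intensity (vertical axis) on each array (points, 2 per group) and group means (line) of 9 replication genes by hCG group (horizontal axis). Cdc6, Mcm5 and Gins1 step down in both intervals, Uhrf1, Orc1 and Mcm6 drop by 8 h and then level off, Rrm2 drops after 8 h, Pcna drops by a smaller amount, and Orc4 has no call on the brightest probe set, which is the one drawn.

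Over the 44 genes, 23 were called lower in both intervals, 14 in the early interval alone, 3 (Orc2, Pcna and Rrm2) in the later alone and 4 (E2f1, Fen1, Orc4 and Rfc3) in neither. A call in one interval and not in the other does not show that the intervals differ, so the later change minus the early one was tested in the same fit, where a positive value means a smaller fall after 8 h than before it. It was called higher for 9 of 44 genes (20.5%, against 15.5% of all genes) and lower for 2 (4.55%, against 10.5%). The share called higher was thus near that of all genes. The median was 0.26, against 0.05 over all genes. The 9 with the smaller later fall were Uhrf1 (1.98 ± 0.30, adjusted p = 0.00119), Chaf1b (1.71 ± 0.39), Orc1 (1.66 ± 0.26, adjusted p = 0.00142), Mcm6 (1.56 ± 0.29), Orc5 (1.30 ± 0.28), Pole (1.10 ± 0.28), Pold1 (0.98 ± 0.27), Lig1 (0.88 ± 0.25) and Cdt1 (0.85 ± 0.26). The 2 with the larger later fall were Rrm2 (−2.16 ± 0.44, adjusted p = 0.00664) and Cdc6 (−1.10 ± 0.32, adjusted p = 0.0365). Uhrf1 and Orc1 kept this call without each single array, and the other 9 lost it in at least 1 omission. The count of genes with a smaller later fall was 2 without replicate 1 at 8 h, 4 without replicate 2 at 8 h, 5 without replicate 1 at 16 h and 5 without replicate 2 at 16 h. Rrm2 lost its call without replicate 2 at 8 h (adjusted p = 0.0932), and Cdc6 without replicate 1 of no hCG (0.0515), either 8 h array (0.22 and 0.161) or replicate 2 at 16 h (0.111).

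Of 29 replication genes with several tested probe sets, all probe sets agreed in their call for 20 at 8 h, 24 between 8 h and 16 h and 21 over the whole time, and 0 genes had probe sets called in opposite directions. Of 5 tested for Mcm3, 4 fell by between 1.60 and 1.85 at 8 h, and the dimmest had −0.46 ± 0.17 (adjusted p = 0.0672). Both tested Mcm6 probe sets fell at 8 h, the second by 1.64 ± 0.20, and had no later call.

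Other genes of replication outside the 46, taken from lists of 96 genes, also fell more often than they rose. Of 91 tested, 52 fell (57.1%, against 20.5% of all genes) and 7 rose (7.69%, against 16.9%) at 8 h. Between 8 h and 16 h, 30 fell (33%, against 9.12%) and 3 rose (3.3%, against 11.8%). Over the whole time 64 fell (70.3%, against 20.8%) and 5 rose (5.49%, also against 20.8%). Their medians were −0.67, −0.29 and −1.02. Among 28 further replisome genes, 16 fell (57.1%, against 20.5% of all genes) and 3 rose (10.7%, against 16.9%) at 8 h. Dscc1, a subunit of an alternative clamp loader, fell by 2.35 ± 0.24 at 8 h (adjusted p = 5.23e-05) and by 1.52 ± 0.24 afterwards (adjusted p = 0.00177). It read 9.14 and 9.68 without hCG, 6.78 and 7.35 at 8 h and 5.65 and 5.43 at 16 h, stepping down without overlap. Against that trend, Rnaseh2a, the catalytic subunit of an RNase that removes ribonucleotides from DNA, rose by 1.42 ± 0.23 at 8 h (adjusted p = 0.00092). Pold4, the small subunit of polymerase delta, was 1.68 ± 0.18 higher at 16 h than without hCG (adjusted p = 6.73e-05), while Pold1 and Pold2 were lower by 2.02 ± 0.16 and 1.86 ± 0.16. The topoisomerase gene Top1 rose by 1.00 ± 0.16 at 8 h (adjusted p = 0.000863) and fell by 1.18 ± 0.16 afterwards (adjusted p = 0.000738), so that its change over the whole time was −0.18 ± 0.16 (adjusted p = 0.431).

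Of 11 genes that time or restrain origin firing, 8 fell at 8 h, 5 between 8 h and 16 h, and 0 rose in either interval (also 0 at an unadjusted p). The falls were 72.7% and 45.5%, against 20.5% and 9.12% of all genes, of which 16.9% and 11.8% rose. Of 12 genes of the E2F and pocket protein families, 5 fell and 2 rose at 8 h. These shares were 41.7% and 16.7%, against 20.5% and 16.9% of all genes. Afterwards 5 fell (41.7%, against 9.12% of all genes) and 0 rose (1 at an unadjusted p), against 11.8% of all genes. E2f7, a repressor of the family, fell by 0.95 ± 0.20 at 8 h and by 1.81 ± 0.20 afterwards (adjusted p = 0.000217). E2f3, an activator, rose by 1.07 ± 0.21 at 8 h (adjusted p = 0.00351) and fell by 0.84 ± 0.21 afterwards (adjusted p = 0.0229). The pocket protein gene Rbl2, known for its part in cell cycle exit, was 1.43 ± 0.27 higher at 16 h than without hCG (adjusted p = 0.00225). Of 16 further genes of nucleotide synthesis, 11 fell and 2 rose at 8 h, and 1 fell and 1 rose afterwards. The early shares were 68.8% and 12.5%, against 20.5% and 16.9% of all genes. The later shares were 6.25% each, against 9.12% and 11.8% of all genes. Tk2, the mitochondrial thymidine kinase, rose by 1.11 ± 0.17 at 8 h (adjusted p = 0.000843), while Tk1 of the cytosol fell. Rrm2b, the ribonucleotide reductase subunit used outside S phase, fell by 0.86 ± 0.16 at 8 h and rose by 0.60 ± 0.16 afterwards (adjusted p = 0.026).

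Of 10 further genes for the copying of chromatin, 5 fell at 8 h and 3 afterwards, with 0 rising (also 0 at an unadjusted p). The falls were 50% and 30%, against 20.5% and 9.12% of all genes, of which 16.9% and 11.8% rose. Cdca7, which works with the remodeller Hells, fell by 2.21 ± 0.25 at 8 h (adjusted p = 0.000109). Of 14 genes of the replication checkpoint and fork repair, 7 fell at 8 h with 0 rising (also 0 at an unadjusted p), and 4 fell and 1 rose afterwards. The falls were 50% and 28.6%, against 20.5% and 9.12% of all genes. The rises were 0% and 7.14%, against 16.9% and 11.8%. Brca2 fell by 2.02 ± 0.15 at 8 h (adjusted p = 8.33e-06), and the exonuclease gene Exo1 was 3.31 ± 0.18 lower at 16 h than without hCG. Chek1, the checkpoint kinase activated at stalled forks, read 11.37 and 11.41 without hCG, 9.54 and 9.41 at 8 h and 10.51 and 10.25 at 16 h. Its 16 h arrays lay between the other 2 pairs. Chek1 fell by 1.91 ± 0.16 at 8 h (adjusted p = 1.72e-05) and rose by 0.90 ± 0.16 afterwards (adjusted p = 0.00369), and 0 of the 44 replication genes had such a later rise.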

How the data were processed

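Per the labels' protocols, total RNA of 6 pools of cumulus-oocyte complexes was turned into biotin-labelled cRNA for Affymetrix mouse genome arrays. The deposited table gave log2 intensities, 1 per probe set and array, from 3.32 to 15.5, a scale read from the values. The software and the normalization behind it are not given in the sources used here. Groups and replicate numbers came from the sample titles.

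Of 45101 probe sets, 64 controls were left out. GEO's platform annotation gave 34945 probe sets 1 symbol, 932 several and 9160 none, and 34741 of the first matched a RefSeq gene by gene number. Array medians differed by 0.125, under a limit of 0.2, so values were used as deposited. The dimmest probe sets, with 6-array means below the 40th percentile (5.62), were not tested, which left 27022. The probe set with the highest mean stood for its gene.

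In R 4.3.3, limma 3.58.1 fitted 1 mean per group over the 6 arrays (lmFit, then eBayes), which had 3 residual degrees of freedom beside a prior of 6.43. Two-sided tests were used with Benjamini-Hochberg adjustment over all 27022 probe sets, and every adjusted p in the text is from this fit or its refits under alternatives. The number of arrays limits the precision. The code was tested on simulated data.

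The 46 genes, the gene lists and the rules were chosen with earlier results of these data known. Values on every array were given, per role class and comparison, for the 2 called genes with the largest change, and for genes without a call. Other pathway genes were named up to 4 per comparison and direction, and markers up to 3 per list, by size of change among called genes, and a result that this rule names among the pathway genes is not reported here. Array values of E2f1, Fen1, Rfc3, Ptprc and Laptm5, and the changes of Upk1b and Upk3b, were added after they had been seen. A summed level is the sum of linear intensities over the tested genes of a list. Alternatives were other normalizations, filters, probe set choices, variance models and sample sets, a block for the replicate number, and leaving out each array.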

Additional observations from a re-analysis of the deposited data

How the results depend on the processing

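Across the 9 alternatives other than leaving out an array (8 for the difference between intervals), replication genes called lower numbered 33 to 40 at 8 h against no hCG, 20 to 29 at 16 h against 8 h and 38 to 44 at 16 h against no hCG, and 0 were called higher. The mean of a gene's probe sets gave median changes of −0.8351, −0.5933 and −1.4966 in these comparisons, and quantile normalization gave −1.8201 in the last. For the later minus the early change, genes called lower numbered 4 with the mean of probe sets and 1 without probe sets ending in _s_at, _x_at or _a_at, which left 39 genes. Cdc6, whose only probe set ends in _a_at, was not among these 39. Leaving out each array in turn gave 29 to 36, 14 to 29 and 38 to 42 genes called lower, 2 to 11 and 0 to 2 called higher and lower for the difference between intervals, and medians of −1.0732 to −0.9489, −0.7724 to −0.6688, −1.8163 to −1.6779 and 0.1561 to 0.3196. The cause of these shifts was not tested.

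With the replicate number as a block, 40, 28 and 43 genes were called lower, and 9 and 2 for the difference between intervals. Same-numbered arrays deviated together with r = 0.4683 for no hCG and 8 h, 0.001 for no hCG and 16 h and 0.1349 for 8 h and 16 h, and the labels do not say that a number marks a shared animal or day.

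Changes without a call turned sign as follows. At 8 h against no hCG, Orc4 was 0.0557 without the suffixed probe sets, and leaving out 1 array gave −0.2497 to 0.0904 for Orc4 and −0.0504 to 0.6219 for Rrm2. At 16 h against 8 h, median centring gave Rfc1 0.0062 and Orc1 0.0046, the mean of probe sets gave Rfc1 0.0567 and E2f1 0.1126, and E2f1 was 0.1835 without the suffixed probe sets. Leaving out 1 array gave −0.7685 to 0.2519 for Rfc3, −0.0508 to 0.0238 for Orc1, −0.1514 to 0.1275 for Rfc1, −0.1861 to 0.1261 for E2f1, −0.5272 to 0.0391 for Chaf1b, −0.2759 to 0.0285 for Uhrf1, −0.2458 to 0.037 for Orc5 and −0.3609 to 0.0884 for Prim2. No called change of a replication gene turned sign. Signal over background is unknown, which limits what low values such as those of Cdc6 at 16 h can show.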
